A study of Mus musculus with 12 samples.

Results

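The hippocampal transcriptomes of 12 mice, sequenced from poly(A) RNA, were divided by their level of *Aldh1a2*, the gene of an enzyme that makes retinoic acid and a marker of fibroblasts of the meninges. The 3 libraries with at least 8 CPM (counts of a gene scaled by library size and TMM factors to a common total) were chosen by that measurement, and the 9 libraries below 8 CPM formed the rest. The level was 21.7 CPM in RH8 and 10.1 CPM in RH6, both KO-Nut3, and 14.9 CPM in RH5, a WT-Veh mouse. The other libraries had 1.40 to 4.06 CPM, so that the nearest values on either side of the threshold were 10.1 CPM in RH6 and 4.06 CPM in WT-Nut3 RH1. Because these values chose the libraries, *Aldh1a2* was left out of the results, and the contrast of the 3 with the 9 is a description without a test.

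All mice were C57BL/6, either wild type (WT) or with a knockout of *Fmr1* (*Fmr1*-KO), and were treated with vehicle (Veh) or Nutlin-3 (Nut3), 3 separate mice to a group. Nutlin-3, an inhibitor of the binding of MDM2 to p53, was injected 5 times at 10 mg/kg from 2 months of age, vehicle mice were injected likewise, and the hippocampus was dissected and frozen at 6 months. The WT-Veh group held RH2, RH5 and RH15, WT-Nut3 held RH1, RH9 and RH14, KO-Veh held RH7, RH10 and RH16, and KO-Nut3 held RH6, RH8 and RH13. Whole tissue was sequenced, so fewer cells of a type and less RNA per cell cannot be told apart. *Fmr1* had 28.5 to 37.3 CPM in the KO libraries and 74.0 to 79.5 CPM in the WT libraries, so that each library matched its labelled genotype. Reads counted on genes numbered 17221891 to 19073478 in the 3 libraries and 17150820 to 20040482 in the 9.

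The meninges are membranes that wrap the brain, and their fibroblasts secrete collagen and small proteoglycans, release retinoic acid and bone morphogenetic proteins, and carry transporters that move solutes between cerebrospinal fluid, blood and brain. The hippocampus borders on pia and on the folds of membrane that lead to the choroid plexus, so a dissected hippocampus can hold meningeal cells. Genes known from such fibroblasts were followed through the 12 libraries in 6 lists, which together held 127 genes that could be tested.

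All 3 libraries came from the 6 animals numbered up to RH8, in which 3.07% to 3.22% of the reads mapped to several places, against 3.33% to 3.55% in the 6 animals from RH9. KO-Nut3 RH6 also stood apart from all other libraries in region markers. The summed level of 8 thalamic genes was 266 CPM there and 92.6 CPM at most elsewhere, with *Slc17a6*, a glutamate transporter of thalamic neurons, at 113 CPM against 8.42 to 22.2 CPM, and the sum of 10 genes of hippocampal neurons was 1008 CPM against 1351 to 1588 CPM. The thalamic sum was 56.2 CPM in RH5 and 92.6 CPM in RH8, against 39.7 to 91.5 CPM in the 9, and the hippocampal neuron sum was 1351 CPM in RH5 and 1403 CPM in RH8, against 1368 to 1588 CPM.

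Fibroblast genes were higher in the 3 libraries at a larger share than genes at large. Of the 127 listed genes, 35 had a higher level in each of the 3 libraries than in each of the 9, which is called separated here, and 0 had a lower level in each of the 3. Over the 22591 genes tested apart from *Aldh1a2*, 274 were higher in this way, or 1.21%, and 155 were lower, or 0.686%. The median level of the 3 was above that of the 9 for 111 of the 127 genes, with a median log2 ratio of 0.65 against 0.00391 for all genes. With RH6 left out, 46 of the 127 genes and 591 of all genes were higher in both RH5 and RH8 than in each of the 9. Among the 35 genes the ratio of the medians ran from 1.38 to 14.3 with a median of 2.74. The gap, which is the lowest of the 3 divided by the highest of the 9, ran from 1.01 to 2.47 with a median of 1.30.

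**Figure D1:**
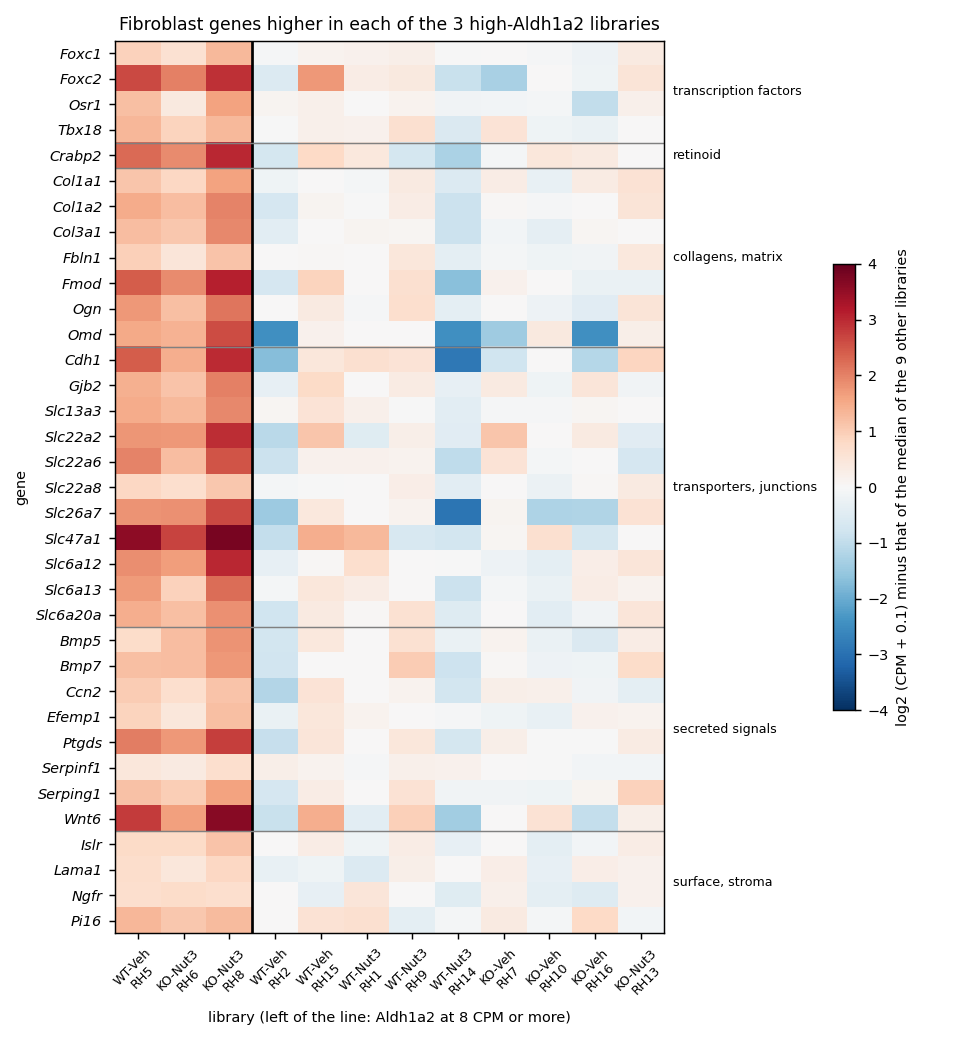
Levels of the 35 fibroblast genes that were higher in each of the 3 libraries with high *Aldh1a2* (left of the line) than in each of the 9 others, as log2 of CPM plus 0.1 relative to the median of the 9, with genes in rows by list and libraries in columns by group. RH8 was the darkest column in 32 of the 35 rows, and RH5, a vehicle-treated WT mouse, was raised in the same rows as the KO-Nut3 libraries RH6 and RH8.

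The 3 libraries were also compared with each other. RH8 had the highest level of 32 of the 35 genes, RH5 of 2 and RH6 of 1. The order RH8, RH5, RH6 was seen in 28 of the 35 genes, in 50 of the 127 and in 16.2% of all genes. That order was taken from *Aldh1a2*, whose values chose the libraries, so these counts are a description and support nothing. The summed level of the 6 lists was 4682 CPM in RH8, 3806 CPM in RH5 and 3606 CPM in RH6. The 9 libraries had 2279 to 2886 CPM. Of these sums, *Ptgds* alone gave 1725 CPM in RH8, 1047 CPM in RH5 and 836 CPM in RH6. By list, RH6 was above RH5 for matrix (939 against 912 CPM), transporter (641 against 592 CPM) and retinoid genes (292 against 265 CPM). The order for matrix genes came from *Sparc*, without which the sum of RH5 was above that of RH6. For transcription factors (42.3 against 34.7 CPM), secreted signals (1755 against 1503 CPM) and surface markers (240 against 196 CPM) RH5 was above RH6. Per kilobase of exon, *Ptgds* had the highest level of the 6 lists.

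Among the transcription factors, 4 of 12 genes were higher in each of the 3 libraries. *Foxc1* (chromosome 13, 31806633 to 31812476 in GRCm38), a forkhead factor without which the meninges do not form properly, had 9.93 CPM in RH5, 8.04 CPM in RH6 and 13 CPM in RH8 and 4.56 to 6.64 CPM in the 9. Its relative *Foxc2* had 2.99 CPM in RH5, 1.89 CPM in RH6 and 3.67 CPM in RH8, against 0.103 to 1.54 CPM, and the highest of the 9 was WT-Veh RH15 at 30 reads. The T-box factor *Tbx18* had 4.25 CPM in RH5, 3.16 CPM in RH6 and 4.24 CPM in RH8 against 1.06 to 2.63 CPM. The gaps were narrow, at 1.21 for *Foxc1* and 1.22 for *Foxc2*, and *Osr1* was similar at 3.44 to 8.02 CPM against 1.25 to 3.02 CPM. Of the 8 other factors, *Foxd1* came close, with RH6 at 2.27 CPM just under RH1 at 2.38 CPM, while *Prrx1*, which had the most reads of this list, had 10.8 to 10.9 CPM in the 3 and 6.81 to 11.6 CPM in the 9. Over the 12 factors the median log2 ratio of medians was 1.08.

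Most retinoid genes overlapped between the 3 libraries and the 9. Of 19 genes of retinoid synthesis, transport, breakdown and signaling, 1 was higher in each of the 3, and the median log2 ratio over the list was 0.17. That gene was *Crabp2* (chromosome 3, 87948666 to 87953376), which encodes a protein that carries retinoic acid to its nuclear receptors, with 3.05 CPM in RH5, 2.33 CPM in RH6 and 5.098 CPM in RH8 against 0.168 to 1.03 CPM in the 9. The other retinal dehydrogenases overlapped between the libraries, *Aldh1a1* with 38.8 to 60.3 CPM against 40.4 to 46.7 CPM and *Aldh1a3* with 0.917 to 1.37 CPM against 0.570 to 1.01 CPM. *Rarb* and *Cyp26b1*, a retinoic acid receptor and an enzyme of its breakdown, both known to be induced by retinoic acid, also overlapped, at 2.26 to 3.55 CPM against 1.19 to 3.14 CPM and at 12.4 to 18.1 CPM against 8.97 to 16.1 CPM. *Rxrb*, the most abundant gene of this list, had 65.3 to 70.7 CPM in the 3 and 66.9 to 75.96 CPM in the 9.

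Collagens and other matrix genes were divided. The genes of collagen types I and III were separated, with *Col1a1* at 14.7 CPM in RH5, 11.9 CPM in RH6 and 20.7 CPM in RH8 against 4.598 to 9.94 CPM, and *Col1a2* (chromosome 6, 4504814 to 4541544) at 27.5 CPM in RH5, 23.2 CPM in RH6 and 39.2 CPM in RH8 against 5.38 to 14 CPM. *Col3a1* had 5.78 CPM in RH5, 5.21 CPM in RH6 and 9.51 CPM in RH8 against 1.29 to 2.64 CPM. The ratio of medians was thus 2.19, 2.82 and 2.39 for these 3 collagens, and no library of the 9 reached the lowest of the 3.

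Of the genes of small leucine-rich proteoglycans, which bind to collagen fibrils, *Fmod*, *Ogn* and *Omd* were separated, whereas *Dcn*, *Lum*, *Bgn*, *Prelp* and *Aspn* overlapped. *Fmod* (fibromodulin, chromosome 1, 134037254 to 134048277) had 29.9 CPM in RH5, 20.6 CPM in RH6 and 48.2 CPM in RH8, against 1.68 to 10.3 CPM in the 9, a ratio of medians of 5.41 and a gap of 2.00. *Ogn* (osteoglycin) had 16.5 CPM in RH5, 11.4 CPM in RH6 and 22.2 CPM in RH8 against 3.53 to 7.799 CPM, and its neighbour on chromosome 13, *Omd* (osteomodulin), had 1.47 CPM in RH5, 1.33 CPM in RH6 and 3.27 CPM in RH8 against at most 0.620 CPM, with 0 reads in 3 of the 9 libraries. *Fbln1* (fibulin 1) completed the 7 separated genes of this list at 14.97 to 23.5 CPM against 8.13 to 14.5 CPM.

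The remaining 28 matrix genes overlapped, among them the fibrillar collagen genes *Col5a1* (19.2 to 36.4 CPM against 14.3 to 33.2 CPM) and *Col5a2* (8.82 to 13.3 CPM against 11.73 to 14.2 CPM). *Dcn* (decorin), which is abundant in most fibroblasts, had 58.3 CPM in RH5, 20.4 CPM in RH6 and 56.5 CPM in RH8 against 28.4 to 56.8 CPM, with RH6 the lowest of the 12 libraries. *Col6a1* was likewise lowest in RH6 at 15.7 CPM and highest in RH5 at 79.1 CPM, with the 9 between at 36.6 to 59.2 CPM. *Sparc*, the most abundant gene of the list, had 465 CPM in RH6 but 243 CPM in RH8 and 251 CPM in RH5, against 206 to 244 CPM. In all 7 of the 35 matrix genes were separated, and the median log2 ratio was 0.65.

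Transporters and junction proteins had the highest share of separated genes among the 6 lists, 11 of 18. *Slc47a1* (chromosome 11, 61343401 to 61378345), an exporter of organic cations, had 6.304 CPM in RH5, 3.44 CPM in RH6 and 7.33 CPM in RH8 against 0.179 to 1.39 CPM, the largest ratio of medians of all 127 genes at 14.3. The organic anion transporter *Slc22a6* had 13.7 CPM in RH5, 8.097 CPM in RH6 and 19.9 CPM in RH8 against 1.63 to 5.01 CPM, and its neighbour on chromosome 19, *Slc22a8*, had 26.5 CPM in RH5, 23.6 CPM in RH6 and 31.3 CPM in RH8 against 10.99 to 19.1 CPM. Another member, the cation transporter *Slc22a2*, reached 0.610 to 1.55 CPM against at most 0.361 CPM. These 3 genes were thus higher in all 3 libraries. The ratio of medians was 4.08 for *Slc22a6* and 1.78 for *Slc22a8*, and none is given for *Slc22a2*, whose median in the 9 lay under the level of 3 reads.

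Transporters of GABA, betaine and amino acids were also separated. *Slc6a13* (GAT2, a GABA transporter of meninges) had 16.5 CPM in RH5, 9.65 CPM in RH6 and 23.8 CPM in RH8 against 2.69 to 6.85 CPM, and the adjacent *Slc6a12*, a betaine and GABA transporter, had 3.31 CPM in RH5, 2.94 CPM in RH6 and 7.62 CPM in RH8 against 0.620 to 1.42 CPM. The proline transporter gene *Slc6a20a* had 18.9 to 29.04 CPM against 4.598 to 12.4 CPM. The dicarboxylate transporter *Slc13a3* had 29.4 CPM in RH5, 25.5 CPM in RH6 and 39.98 CPM in RH8 against 7.74 to 15.3 CPM and the anion exchanger *Slc26a7* had 2.52 CPM in RH5, 2.61 CPM in RH6 and 4.64 CPM in RH8 against 0 to 1.04 CPM. The median log2 ratio over all 18 genes was 1.48, and all 18 had a higher median in the 3 libraries.

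*Gjb2* (connexin 26), which forms gap junctions between meningeal cells, had 11.8 CPM in RH5, 9.59 CPM in RH6 and 17.8 CPM in RH8 against 3.404 to 7.37 CPM. *Cdh1* (E-cadherin), an adhesion protein of epithelia and of barrier cells, had 3.78 CPM in RH5, 1.89 CPM in RH6 and 5.56 CPM in RH8 against 0 to 1.21 CPM. In contrast, *Gjb6* (51.5 to 60.9 CPM against 35.9 to 63.3 CPM) and *Cldn11* (103 to 147 CPM against 81.8 to 153 CPM), which astrocytes and oligodendrocytes also express, overlapped. The same was true of *Cdh11* and of the vitamin C transporter gene *Slc23a2*, which had the most reads of this list.

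Of the secreted signals, 8 of 27 were separated, and *Ptgds* had the most reads of the list. *Ptgds* (chromosome 2, 25466709 to 25470046), which encodes prostaglandin D synthase, an abundant protein of cerebrospinal fluid, had 1047 CPM in RH5, 836 CPM in RH6 and 1725 CPM in RH8. The 9 libraries had 134 to 354 CPM, so that the lowest of the 3 was 2.36 times the highest of the 9. *Bmp7* had 16.8 CPM in RH5, 16.9 CPM in RH6 and 24 CPM in RH8 against 4.04 to 14.6 CPM and *Bmp5* had 0.998 CPM in RH5, 1.44 CPM in RH6 and 2.18 CPM in RH8 against 0.299 to 0.894 CPM. *Wnt6* had 2.73 CPM in RH5, 1.17 CPM in RH6 and 5.04 CPM in RH8 against 0.0560 to 1.03 CPM, a ratio of medians of 8.82. *Ccn2* (connective tissue growth factor), *Efemp1* (a matrix glycoprotein) and the serpin genes *Serpinf1* and *Serping1* had ratios of 1.38 to 2.26.

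Surface and stromal markers were separated in 4 of 16 genes, *Islr*, *Lama1*, *Ngfr* and *Pi16*. *Islr*, a secreted marker of mesenchymal cells, had 19.6 CPM in RH5, 19.6 CPM in RH6 and 25.7 CPM in RH8 against 8.79 to 14.2 CPM. *Pdgfra*, first on this list and also a marker of oligodendrocyte precursors, had 51.8 to 66.5 CPM against 49.8 to 60.4 CPM and overlapped, as did *Pdgfrb* at 27.5 to 30.2 CPM against 19.7 to 33.1 CPM.

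**Figure D2:**
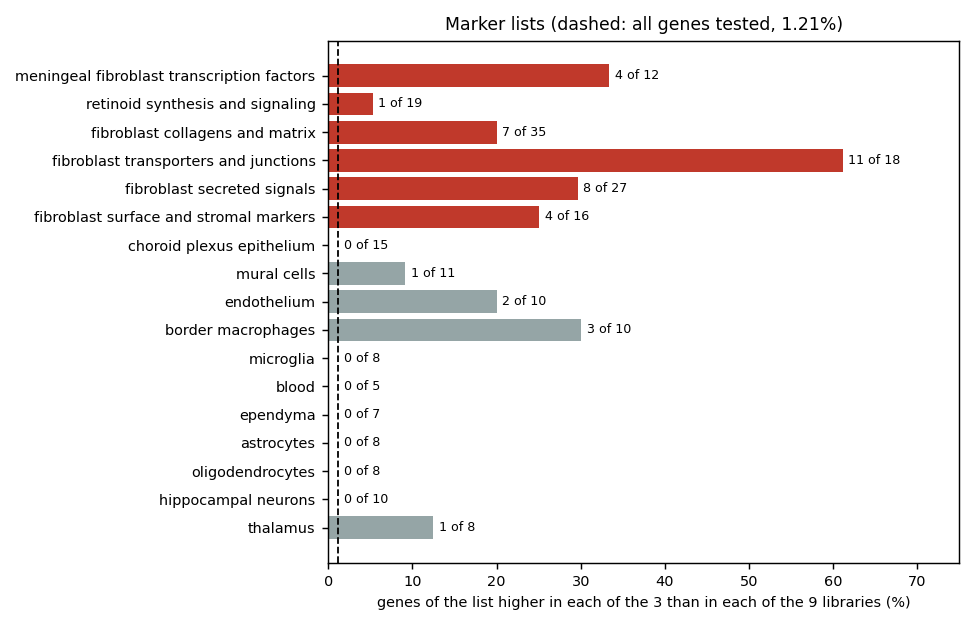
Share of each marker list whose genes were higher in each of the 3 libraries than in each of the 9, in percent, with the count beside each bar and red bars for the 6 fibroblast lists. The dashed line at 1.21% is the share of all genes tested, and the longest bar is that of transporters and junctions with 11 of 18 genes.

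Markers of several other cell types moved with these libraries, and their part in the result was not tested. Of 10 markers of border macrophages, which live in the meninges and around vessels, 3 were separated, against 1.21% of all genes. They were *Mrc1* (5.2 CPM in RH5, 6.6 CPM in RH6 and 7.45 CPM in RH8 against 1.64 to 3.58 CPM), *Cd163* and *Cbr2*, and the summed level of the list was 36.5 to 49.5 CPM against 22.6 to 32.5 CPM, most of it from *Stab1*. Among 11 mural genes 1 was separated, *Vtn* (68.9 to 95.4 CPM against 41.8 to 57.6 CPM), with a summed level of 251 to 314 CPM against 193 to 249 CPM. Among 10 endothelial genes *Cdh5* and *Itm2a* were separated, and the sums were 316 to 352 CPM against 253 to 315 CPM. The smooth muscle genes *Acta2* and *Myh11* were higher in RH5 (22.3 and 24.4 CPM) and RH8 (24.2 and 24.2 CPM) than in the 9 libraries (6.27 to 16.4 and 5.70 to 16.3 CPM), but not in RH6 (9.32 and 10.04 CPM).

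Choroid plexus epithelium divided the libraries in another way. Of 15 markers, 0 were separated, and their summed level was 5144 CPM in RH6 and 669.97 CPM in RH8 but 176 CPM in RH5, with 6649.9 CPM in WT-Nut3 RH9, 7110.1 CPM in KO-Nut3 RH13 and 157 to 223 CPM in the other 7 libraries of the 9. The most abundant gene, *Ttr* (transthyretin), had 9.56 CPM in RH5. RH5 thus had high fibroblast genes with choroid plexus markers as low as in the 7 libraries. RH9 and RH13 had the highest choroid plexus sums without reaching the fibroblast sum of RH5, RH6 or RH8. Their fibroblast sums, 2825 CPM in RH9 and 2886 CPM in RH13, were still the highest of the 9. The fibroblast sum of RH6 rested in large part on *Ptgds* and *Sparc*.

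None of the markers of microglia (8), blood (5), ependyma (7 tested), astrocytes (8) or oligodendrocytes (8) was separated in the higher direction. The share over all genes was 1.21%, at which lists this short say little. Of 10 genes of hippocampal neurons 0 were higher and 1, *C1ql2* of dentate granule cells, was lower in each of the 3 (87.7 CPM in RH5, 70.99 CPM in RH6 and 89.02 CPM in RH8 against 89.5 to 154 CPM). Of the 8 thalamic genes *Rgs16* was separated, at 5.79 to 8.04 CPM against 3.14 to 5.63 CPM. *Zic1*, listed with the thalamus and also expressed in meninges, had 18.3 CPM in RH5, 76.8 CPM in RH6 and 48.8 CPM in RH8, against 8.51 to 51.1 CPM with its highest value in RH16.

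**Figure D3:**
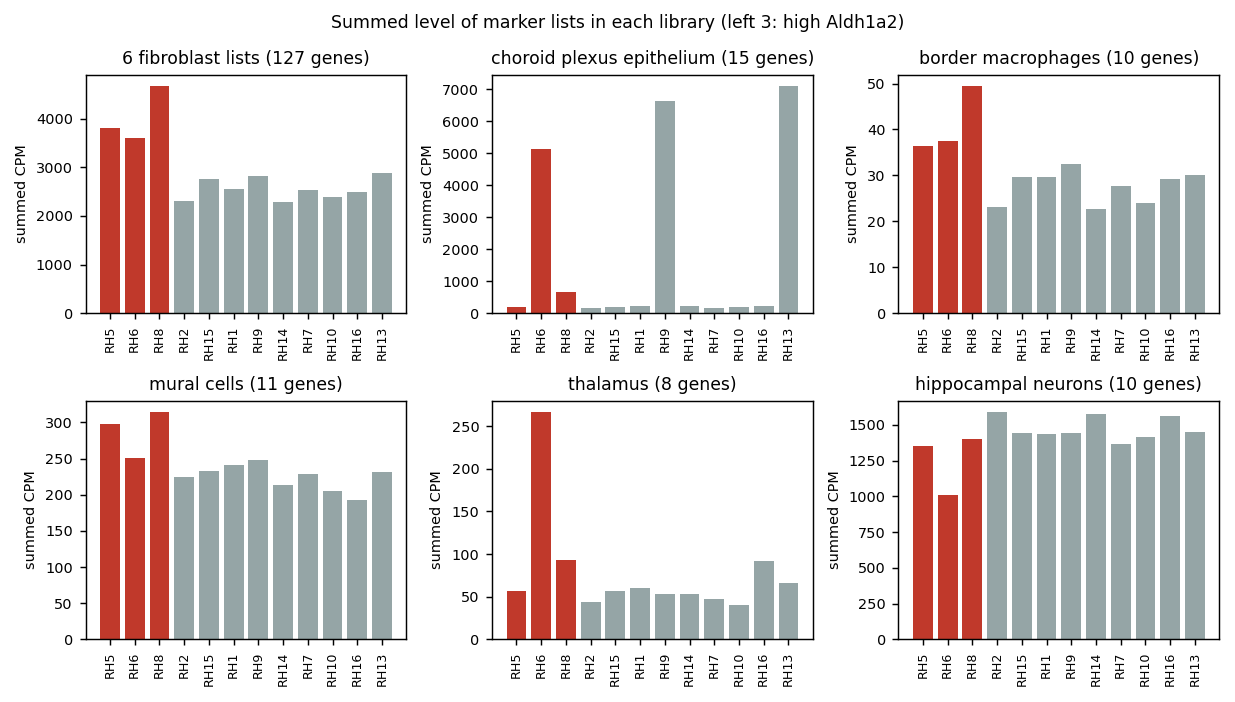
Summed level in CPM of the 6 fibroblast lists together and of 5 other marker lists in each library, with the 3 high-*Aldh1a2* libraries in red at the left. The fibroblast and border macrophage sums of the red bars exceed all grey bars, whereas choroid plexus is highest in RH6, RH9 and RH13, and thalamic genes in RH6.

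Most genes with a separated level were on none of the lists. Of the 274 genes, 35 were on the fibroblast lists, 7 on other lists and 232 on none, and 32 of the 274 had a gap above 1.5. The 20 genes with the widest gap among those with a median of at least 1 CPM in the 3 libraries were named, of which 11 were fibroblast genes described above. The widest gap, 2.69, was that of *H2-Q1*, a class I histocompatibility gene, with 3.099 CPM in RH5, 1.39 CPM in RH6 and 5.04 CPM in RH8 against 0.0600 to 0.516 CPM. It belongs to a family of near-identical genes among which reads can be divided wrongly, so its value is uncertain. *Il13ra2*, a decoy receptor for interleukin 13, had 21 reads in RH5, 7 in RH6 and 21 in RH8, and at most 3 reads in any of the 9 libraries.

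Several of the named genes encode regulators and receptors. *Bnc2*, a zinc finger factor of mesenchymal cells, had 0.735 CPM in RH5, 2.88 CPM in RH6 and 1.03 CPM in RH8, against 0 to 0.361 CPM, with its highest value in RH6. *Insrr*, a receptor of the insulin receptor family, had 1.05 CPM in RH5, 0.776 CPM in RH6 and 2.18 CPM in RH8 against 0 to 0.361 CPM. The orphan receptor gene *Mrgprf* had 1.58 CPM in RH5, 0.943 CPM in RH6 and 3.38 CPM in RH8 against 0.239 to 0.546 CPM. *Slc36a2*, a transporter of small amino acids, and the tetraspanin gene *Tspan11* were also highest in RH6, at 1.55 and 1.94 CPM. The secreted and matrix genes *Fibin* (5.36 CPM in RH5, 5.102 CPM in RH6 and 5.499 CPM in RH8 against 1.86 to 3.08 CPM) and *Adamtsl3* (4.62 CPM in RH5, 3.55 CPM in RH6 and 3.61 CPM in RH8 against 0.855 to 2.22 CPM) complete the genes named.

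Genes that were lower in each of the 3 libraries had narrow gaps. Of 155 such genes 3 had a gap above 1.5, counting genes at low levels, and the 10 named, with a median of at least 1 CPM in the 9 libraries, had gaps of 1.07 to 1.25. *Upp1* (uridine phosphorylase) had 1.52 CPM in RH5, 1.497 CPM in RH6 and 1.26 CPM in RH8 against 1.85 to 3.02 CPM. *Slc19a3*, a thiamine transporter, had 2.52 CPM in RH5, 2.496 CPM in RH6 and 2.35 CPM in RH8 against 2.75 to 3.82 CPM, and *Cenpu*, a centromere protein, had 1.26 CPM in RH5, 1.05 CPM in RH6 and 1.09 CPM in RH8 against 1.39 to 2.299 CPM. The other 7 were Gm3052, *Spata46*, Gm44136, Gm5087, *Tmem138*, *Pvt1* and *Commd3*, with ratios of medians of 0.486 to 0.885.

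The same genes were then compared within the groups, so that the libraries shared genotype and treatment. In WT-Veh, RH5 had the highest level of the 3 mice for 84 of the 127 fibroblast genes, against 32.3% of all genes. In KO-Nut3, both RH6 and RH8 were above RH13 for 70 of the 127, against 32.9% of all genes. Both held for 52 of the 127, against 12.9%. The 35 separated genes are among the 84, the 70 and the 52 by their choice, which also fixed that their ratios within the groups are above 1. As a description of size, RH5 exceeded the higher of the other WT-Veh mice by a median of 2.16 times, with a range of 1.18 to 4.53, and the lower of RH6 and RH8 exceeded RH13 by a median of 1.92 times, with a range of 1.04 to 7.83 apart from *Slc22a2*, which had 1 read in RH13. The highest of these ratios was that of *Slc47a1*. Among the 6 animals numbered up to RH8 alone, 63 of the 127 genes were higher in each of the 3 than in RH1, RH2 and RH7, against 6.62% of all genes, and the 35 are again among them by their choice. No library of the block from RH9 passed the *Aldh1a2* threshold, so the difference could not be examined there.

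**Figure D4:**
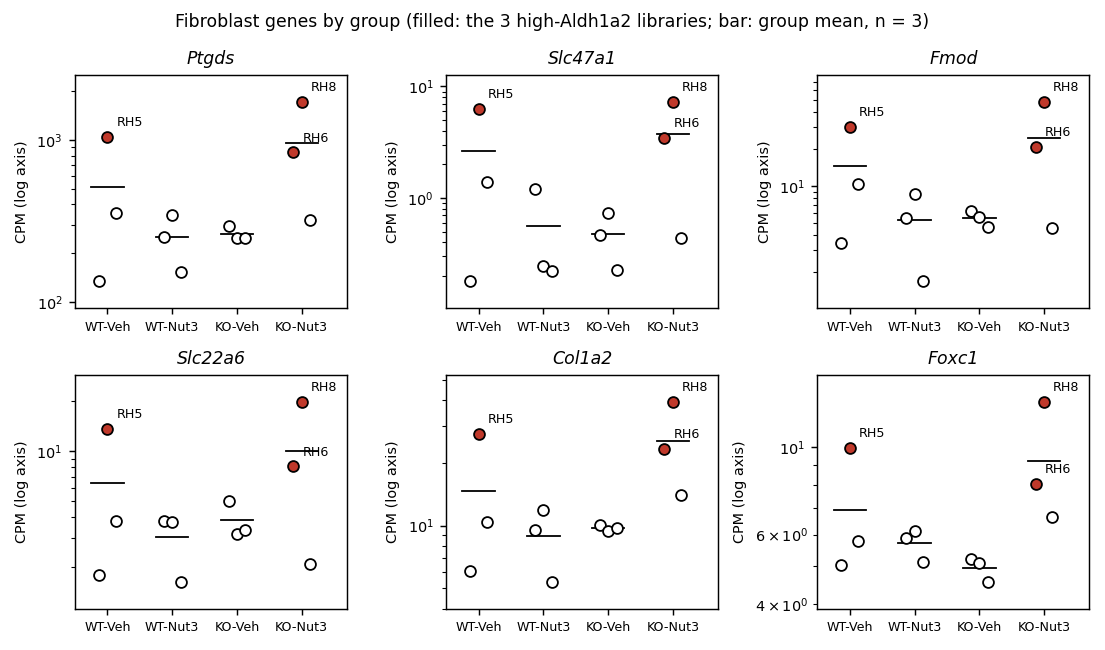
Levels of 6 fibroblast genes in each mouse by group, in CPM on log axes, with filled points for RH5, RH6 and RH8 and a bar for the mean of the 3 mice of each group. In each panel RH5 lies above the other WT-Veh mice and RH6 and RH8 lie above RH13, the third KO-Nut3 mouse.

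Group means of *Ptgds* and *Fmod*, both separated genes, had a wide SD in WT-Veh and KO-Nut3. *Ptgds* was 512 ± 477 CPM in WT-Veh, 250.3 ± 96.2 CPM in WT-Nut3, 264 ± 25.9 CPM in KO-Veh and 960 ± 711 CPM in KO-Nut3 (SD, n = 3 each). *Fmod* was 14.6 ± 13.7 CPM in WT-Veh and 24.5 ± 22.1 CPM in KO-Nut3, against 5.27 ± 3.46 CPM in WT-Nut3 and 5.48 ± 0.820 CPM in KO-Veh. For both genes the SD was larger in WT-Veh and KO-Nut3, the groups that held the high-*Aldh1a2* libraries, than in the other groups. In a separated gene these libraries lie above the other mice of their groups by definition. The choice of genes and libraries thus favours a larger SD in WT-Veh and KO-Nut3, so this difference supports nothing.

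The design crosses genotype with treatment, so Nutlin-3 was compared with vehicle in each genotype, and the genotypes were compared under each treatment. KO-Nut3 against WT-Veh was not analysed here. The comparisons include the selected libraries, RH5 in WT-Veh and RH6 and RH8 in KO-Nut3. A two-sided quasi-likelihood test (edgeR) was run on the 6 libraries of each pair, with Benjamini-Hochberg adjustment over 22592 genes and a threshold of 0.05. Pairs that share a group, such as KO-Veh, share its libraries.

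Between KO-Nut3 and KO-Veh, 7 of the 127 fibroblast genes passed, all higher in KO-Nut3, against 44 genes or 0.195% of all genes in that direction. They were 5 of 27 secreted signals, 1 of 35 matrix genes and 1 of 18 transporters, with 0 of 12 transcription factors, 0 of 19 retinoid genes and 0 of 16 surface markers. *Slc13a4* (chromosome 6, 35267957 to 35308131), a sulfate transporter of meninges, had 36.7 CPM in RH6, 37.3 CPM in RH8 and 29.4 CPM in RH13, the KO-Nut3 mice, and 7.28, 4.23 and 3.82 CPM in the KO-Veh mice. The means were 34.5 ± 4.38 and 5.11 ± 1.89 CPM (SD, 3 mice each), and the log2 fold change of 2.74 had a standard error of 0.213 and an edgeR adjusted *P*-value of 0.00144. All KO-Nut3 mice were above all KO-Veh mice, but WT-Veh RH5 had 25.1 CPM and WT-Nut3 RH9 26.1 CPM, whereas the other WT libraries had 2.41 to 7.16 CPM.

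The growth factor *Igf2* had 5.43 CPM in RH6, 5.84 CPM in RH8 and 4.28 CPM in RH13 against 1.03, 0.564 and 0.684 CPM in KO-Veh, a log2 fold change of 2.75 with a standard error of 0.274 and an edgeR adjusted *P*-value of 0.00718. *Bmp6*, a bone morphogenetic protein, had 24.3 CPM in RH6, 26.3 CPM in RH8 and 23.9 CPM in RH13 against 7.64, 5.19 and 6.72 CPM in KO-Veh, with a log2 fold change of 1.93 and an edgeR adjusted *P*-value of 0.0013. Of the WT libraries, RH9 had 21.4 CPM and RH5 18.3 CPM of *Bmp6*, and the others had 6.27 to 8.67 CPM. The other genes that passed were *Angptl2* (a secreted angiopoietin-like protein, log2 fold change 2.24), *Igfbp2* (an IGF-binding protein, 2.03), *Sfrp1* (a secreted inhibitor of Wnt signaling, 2.01) and *Pcolce* (an enhancer of procollagen processing, 1.99). Their adjusted *P*-values lay between 0.00254 and 0.0414. *Sfrp1* did not pass with the animals up to RH8 and from RH9 as a term (adjusted *P*-value 0.0902 in edgeR) or with the filterByExpr filter of edgeR (0.0599). With 1 library left out, *Slc13a4*, *Bmp6* and *Angptl2* passed in each of the 6 fits. *Igf2* was lost without RH10 (edgeR adjusted *P*-value 0.0828) or RH16 (0.0848), *Pcolce* without RH7 (0.112) or RH10 (0.145), *Igfbp2* without RH7, RH10 or RH16 (0.101 to 0.152) and *Sfrp1* without RH7, RH10, RH13 or RH16 (0.0872 to 0.45).

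None of these 7 genes was among the 35 separated genes, which were 27.6% of the 127. A separated gene has RH13 below RH6 and RH8 by definition, and this spread within KO-Nut3 works against passing. The lack of overlap in so few genes therefore supports nothing. *Bmp7*, a separated gene, came close with an edgeR adjusted *P*-value of 0.0537. In each of the 7 the highest values of the 9 libraries were those of RH9 and RH13, the libraries with the highest choroid plexus sums. *Igfbp2* had 100.1 CPM in RH9 and 113 CPM in RH13, above 31.4 CPM in RH5, 87.5 CPM in RH6 and 52.99 CPM in RH8, and *Sfrp1* had 13.4 and 12.2 CPM there, above 4.83 CPM in RH5, 11.98 CPM in RH6 and 5.73 CPM in RH8. RH9 and RH13 held the top values of the 9 in 30 of the 127 fibroblast genes, in 9 of the 35 and in 6.06% of all genes, and in all 44 genes that were higher in KO-Nut3. RH13 is itself a KO-Nut3 library, so its part in that count is tied to the test, while RH9 is a WT-Nut3 library that the test did not use. Of the 44 genes, 1, the class II histocompatibility gene *H2-Ab1*, was also among the 274 separated genes, which were 1.21% of all genes.

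**Figure D5:**
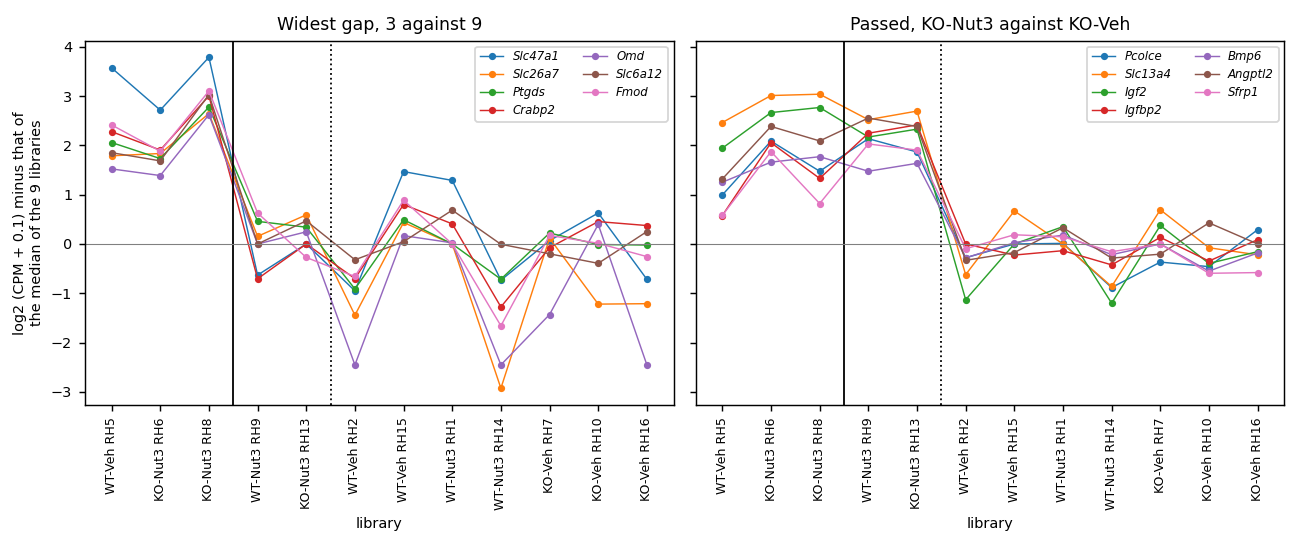
Levels of 2 sets of fibroblast genes in the 12 libraries, as log2 of CPM plus 0.1 relative to the median of the 9 libraries with low *Aldh1a2*, with 1 line for each gene. Left, the 7 fibroblast genes with the widest gap between the 3 libraries and the 9 are highest in RH5, RH6 and RH8. Right, the 7 fibroblast genes that passed between KO-Nut3 and KO-Veh are also high in RH9 and RH13 (between the solid and the dotted line).

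In these edgeR tests on the 6 libraries of a pair, and in that of the interaction of genotype with treatment on all 12, 0 of the 35 separated genes passed. Since RH6 and RH8 are KO-Nut3 libraries, the choice of the libraries set the direction of these genes, and all 35 were above their KO-Veh level in KO-Nut3, by a median log2 fold change of 1.37. The choice also favours small *P*-values for them in that comparison, so the counts that follow support nothing. Before adjustment, 29 of the 35 and 1716 of the 22592 genes were under 0.05 in that comparison, and 15 of the 35 passed with DESeq2, against 245 or 1.35% of the 18187 genes that it gave an adjusted *P*-value. In the other comparisons 0 of the 35 passed with either tool.

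With RH6 and RH8 left out, RH13 was the only KO-Nut3 library, and its spread was assumed to equal that of KO-Veh. The median log2 fold change of the 127 fibroblast genes over KO-Veh was then 0.22 in place of 0.67, and 87 in place of 108 genes were above 0. RH6 and RH8 were chosen by a fibroblast marker, so leaving them out favours a smaller difference. The shift therefore supports nothing. For the 35 genes the median was 0.37 and 25 were above 0. In that fit 12 fibroblast genes and 255 of all genes passed, among them the same 7, and 0 of the 35. These calls rest on RH13 alone, which also had the highest choroid plexus sum. With all 12 libraries in a single fit 0 genes passed, and the log2 fold change of *Slc13a4* was then 2.75 with a standard error of 0.754. The count of 7 also depended on single libraries. For KO-Veh it was 4 without RH7 (of 6 genes in all), 3 without RH10 (of 6) and 4 without RH16 (of 7). For KO-Nut3 it was 14 without RH8 (of 266) and 15 without RH13 (of 41). DESeq2 called 32 of the 127 with all 6 libraries, among its 245.

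Between WT-Nut3 and WT-Veh, 0 of the 127 fibroblast genes and 0 of all genes (0%) passed in edgeR, while 11 of the 127 and 717 of all genes were under 0.05 before adjustment. DESeq2 also gave 0 genes. With the animals up to RH8 and from RH9 as a term, 11 genes passed in edgeR, 0 of them fibroblast genes. With every gene that had at least 1 count, 249 passed in edgeR, of which 22 were fibroblast genes. The median log2 fold change of the 127 fibroblast genes was -0.17 and 38 were higher in WT-Nut3. Without RH5 the median was 0.00309 and 64 were higher, a shift that the choice of RH5 by *Aldh1a2* favours.

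When KO-Veh was set against WT-Veh, 1 of the 127 fibroblast genes passed, against 4 or 0.0177% of all genes. It was *Col5a1*, a chain of a fibrillar collagen, at 15.9 ± 1.51 CPM in the KO-Veh mice against 31.7 ± 5.64 CPM in the WT-Veh mice (SD, 3 mice each). Its log2 fold change was -0.997 with an edgeR adjusted *P*-value of 0.0146. With all 12 libraries in a single fit the log2 fold change was also -0.997, but the gene did not pass (edgeR adjusted *P*-value 0.522). RH5 had the highest level of the 12 libraries at 36.4 CPM, and without it the log2 fold change was -0.89 and no longer passed, and the call was also lost without RH7, RH10 or RH16 of KO-Veh. The median of the fibroblast genes was -0.37 with 24 of 127 higher in KO-Veh, and -0.11 with 49 higher when RH5 was left out. The choice of RH5 by *Aldh1a2* favours this shift as well. DESeq2 called 22 genes with all 6 libraries, and 2 of them were fibroblast genes.

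Between KO-Nut3 and WT-Nut3, 0 of the 127 passed, against 1 gene, *Fmr1*, or 0.00443% of all genes, and 47 of the 127 and 1101 of all genes had an unadjusted *P*-value under 0.05. DESeq2 called 7 genes, 0 of them fibroblast genes. The median log2 fold change was 0.58 with 102 genes higher in KO-Nut3, and 0.15 with 87 higher without RH6 and RH8, where again RH13 stood alone. The genotype by treatment interaction, fitted on the 12 libraries, gave 0 of the 127 and 0 of all genes (0%) in edgeR and 0 of the 127 and 1 of all genes in DESeq2, with 54 of the 127 and 942 of all genes at an unadjusted *P*-value under 0.05. Its median over the fibroblast genes was 0.81 on the log2 scale with all libraries and 0.26 without the 3. The choice of the libraries by *Aldh1a2* favours this shift and the one without RH6 and RH8.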

How the data were processed

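The hippocampi of 12 mice were profiled by poly(A) RNA-seq. The deposited values are raw read counts per gene, which the authors made by mapping to mm10 with STAR (version not given in the sources used here) without normalization. The counts over both strands were used, since the 2 strands had near equal totals, so overlapping and antisense genes cannot be told apart. The deposited table of the whole series was not used. TMM scaling was done in R 4.3.3 with edgeR 4.0.16, and genes with more than 20 counts over the 12 libraries were tested. Libraries were chosen by *Aldh1a2* at 8 CPM or more, and the members and gene lists were chosen with earlier results of these data known. The 3 libraries and the 9 were compared by non-overlap of their values. Genes were named by the widest gaps (20 higher, 10 lower), by passing a test (up to 8 per direction), as members of the fibroblast lists, or as first or most abundant genes of a list. Others were named after their values were seen. Groups were tested with the quasi-likelihood test of edgeR, with DESeq2 1.42.0 as an alternative. Standard errors are the log2 fold change divided by the square root of *F*. At 3 counts, the floor lay between 0.149 and 0.179 CPM, which covers counting error only. The scripts were tested on simulated data. The mice are separate animals with numbers unique to each. Gene positions are from GENCODE M21 (GRCm38).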

Additional observations from a re-analysis of the deposited data

How the results depend on the processing

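The number of fibroblast genes higher in each of the 3 libraries was 35, and 36 with DESeq2 size factors, 38 with library sizes alone, 36 with the filterByExpr filter of edgeR and 35 with every gene that had at least 1 count. For all genes these counts were 274, 266, 359, 233 and 292. Fewer libraries by construction gave more genes, 1496 of all and 63 fibroblast genes within the 6 animals up to RH8, and 591 to 766 of all and 37 to 46 fibroblast genes with 1 of the 3 libraries left out. Between KO-Nut3 and KO-Veh, the 45 genes became 245 with DESeq2, 544 with every gene that had a count, 20 with the number block (animals up to RH8 against from RH9) as a term, 0 with all 12 libraries in one fit, 255 without the 3 libraries and 6 to 266 with 1 library left out. The 7 fibroblast genes there became 32, 51, 6, 0, 12 and 3 to 15. Between WT-Nut3 and WT-Veh, 0 became 249 with every gene that had a count, 11 with the block and 0 to 1 with 1 library left out, and the fibroblast count 22 with every gene. Between KO-Veh and WT-Veh, 4 became 22 with DESeq2, 272 with every gene, 21 with the block, 1 with all 12 libraries and 2 to 11 with 1 library left out. The 1 fibroblast gene became 2 with DESeq2, 29 with every gene, 0 with all 12 libraries, 0 without RH5, and 0 to 1 with 1 library left out, being 0 without RH5, RH7, RH10 or RH16. Between KO-Nut3 and WT-Nut3, 1 became 7 with DESeq2, 38 with every gene and 0 to 7 with 1 library left out, and the 0 fibroblast genes became 8 with every gene and 3 without RH9, with a range of 0 to 3. For the interaction, 0 became 1 with DESeq2, 291 with every gene and 0 to 1 with 1 library left out, and the fibroblast count 48 with every gene. The cause of these shifts was not tested. The fits without the 3 libraries were chosen after the data were seen.

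None of the 7 genes or *Col5a1* reversed in the fits that left out 1 library. No paired analysis was possible because the animal numbers are unique to each library and no group shares a number with another. At these depths the low values of genes such as *Il13ra2*, with at most 3 reads in any of the 9 libraries, rest on single reads.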
